A study of Homo sapiens with 18 samples.

Results

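A set of 399 GR binding regions (GBR) was examined that were not called in control cells but were called once Hic-5 was depleted, and were called again when CHD9 or BRM was depleted along with Hic-5. A GBR belonged to this set if its peak in Hic-5 depleted cells (siHic5/siNS) had no peak overlapping it by at least 1 bp in control cells (siNS/siNS) but had an overlapping peak both in siCHD9/siHic5, where CHD9 was depleted together with Hic-5, and in siBRM/siHic5, where BRM was depleted together with it. The members were thus chosen by peak calls in 4 of the 6 lists. The 399 dual-called GBR were 5.65% of the 7059 blocked GBR, which are the siHic5/siNS GBR absent from siNS/siNS, and part of 9533 siHic5/siNS GBR in all. The other 6660 blocked GBR comprised 783 absent from siCHD9/siHic5 only, 268 absent from siBRM/siHic5 only and 5609 absent from both lists. Of the 2474 shared GBR, called with and without Hic-5, 1600 were called in both doubly depleted lists.

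Binding of GR was profiled by ChIP-seq in the line U2OS-GRα, a human osteosarcoma line made to express GRα stably, so that the receptor comes from an introduced gene. All 6 groups received siRNA for 48 h and then 100 nM dexamethasone (dex), a synthetic glucocorticoid, for 1 h. They were siNS/siNS (nonspecific siRNA), siHic5/siNS, siCHD9/siNS, siBRM/siNS, siCHD9/siHic5 and siBRM/siHic5, each with 2 ChIP libraries and 1 input library. The deposited data were 1 peak list per group, pooled over its replicates, with 2582 GBR for siNS/siNS, 2451 for siCHD9/siHic5, 3383 for siBRM/siHic5, 1415 for siCHD9/siNS and 1278 for siBRM/siNS. No spread between replicates could therefore be computed, read depth is unknown from the lists, and no list shows how far a protein was depleted. The lowest −log10 q-value ran from 7.26 to 14.2 among the lists, highest in siBRM/siHic5, so GR may be present below the cutoff at a GBR that a list does not hold.

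GR is a ligand-activated transcription factor that binds glucocorticoid response elements (GRE) and also occupies sites through or beside other factors, such as AP-1, the dimer of Fos and Jun proteins. Hic-5 (TGFB1I1) is a focal adhesion protein of the paxillin family that also acts in the nucleus as a GR coregulator. CHD9 and BRM (SMARCA2) are ATP-dependent chromatin remodelers, the latter a catalytic subunit of SWI/SNF complexes, and remodelers of this kind move or evict nucleosomes so that factors can reach DNA.

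Strength is the −log10 p-value that the peak caller gave a peak, and each site is named by the gene it lies in or, outside genes, by the nearest protein-coding transcription start site (TSS). The 6 strongest dual-called GBR in siHic5/siNS differed in the consensus matches that they held within the 1-kb window at the summit. Their nearest GRE match is shown, or the AP-1 match where there was no GRE, or the ETS match where there was neither. Each has 10 bases on both sides, is read 5′ to 3′ on the plus strand of GRCh38, and has the match in capitals. The GRE consensus was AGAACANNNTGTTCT with up to 2 mismatches, and AP-1 and ETS matches were exact.
MRPL14, AP-1, chr6:44058638-44058664: cagccagctgTGACTCAcaactcctga
FGR, GRE, chr1:27631213-27631247: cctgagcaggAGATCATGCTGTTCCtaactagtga
FNDC3A, GRE, chr13:48954277-48954311: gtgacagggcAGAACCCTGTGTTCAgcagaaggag
TBC1D22A, ETS, chr22:47292666-47292693: cccagccaggCAGGAAATgggttttggg
STAC2, GRE, chr17:39222292-39222326: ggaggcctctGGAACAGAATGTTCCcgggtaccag
The remaining GBR of these 6, near UBE3A, had no match to any of the 3 patterns. All 3 GRE shown carried 2 mismatches, and those near FNDC3A and in STAC2 lay within 10 bp of the summit.

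Whole 200-bp summit windows of a pair of sites show the motifs in context. The site near KLF4 stands for the most frequent combination, AP-1 without GRE, with AP-1 (bases 60 to 66) followed by ETS (bases 69 to 76) 38 bp and 28.5 bp from the summit. The site in TENM4 had a GRE (bases 92 to 106) centred 2 bp from the summit and AP-1 (bases 176 to 182) 78 bp from it, and was also called in siCHD9/siNS. Both are given on the plus strand of GRCh38 with the matches in capitals.
KLF4, chr9:108150819-108151018: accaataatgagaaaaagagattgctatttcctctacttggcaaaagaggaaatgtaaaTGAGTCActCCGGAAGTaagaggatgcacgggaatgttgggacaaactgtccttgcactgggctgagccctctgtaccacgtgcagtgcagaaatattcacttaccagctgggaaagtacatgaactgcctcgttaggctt
TENM4, chr11:79415164-79415363: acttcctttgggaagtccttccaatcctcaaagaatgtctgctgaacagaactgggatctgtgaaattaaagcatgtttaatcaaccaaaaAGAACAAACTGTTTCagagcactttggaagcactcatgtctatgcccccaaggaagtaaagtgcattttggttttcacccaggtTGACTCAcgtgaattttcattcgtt

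The calls that chose the dual-called GBR are given as description only. Of the 7059 blocked GBR, 9.45% were called in siCHD9/siHic5, 16.7% in siBRM/siHic5 and 5.65% in both, the last being the set itself. In siHic5/siNS the dual-called GBR had −log10 p-values of 12.3 to 129.6, with a median of 38.0 and quartiles of 29.4 and 53.3. The other blocked GBR had a median of 18.1, the GBR absent from both doubly depleted lists 17.2, and the shared GBR called in both lists 72.9. Blocked GBR absent from siCHD9/siHic5 only had a median of 29.6 (quartiles 21.7 and 40.2, highest 147). Those absent from siBRM/siHic5 only had a median of 24.8, so the blocked classes overlapped in strength. The shared GBR absent from at least 1 of the 2 lists had a median of 33.8, so the set lay between the other blocked GBR and only those shared GBR that were called in both. When the blocked GBR were split into 4 strength groups of about equal size by this value, 333 of the 399 fell in the strongest group, 36 and 20 in the next ones and 10 in the weakest. Their peaks were also wider, with a median of 606 bp against 462 bp for the other blocked GBR.

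**Figure D1:**
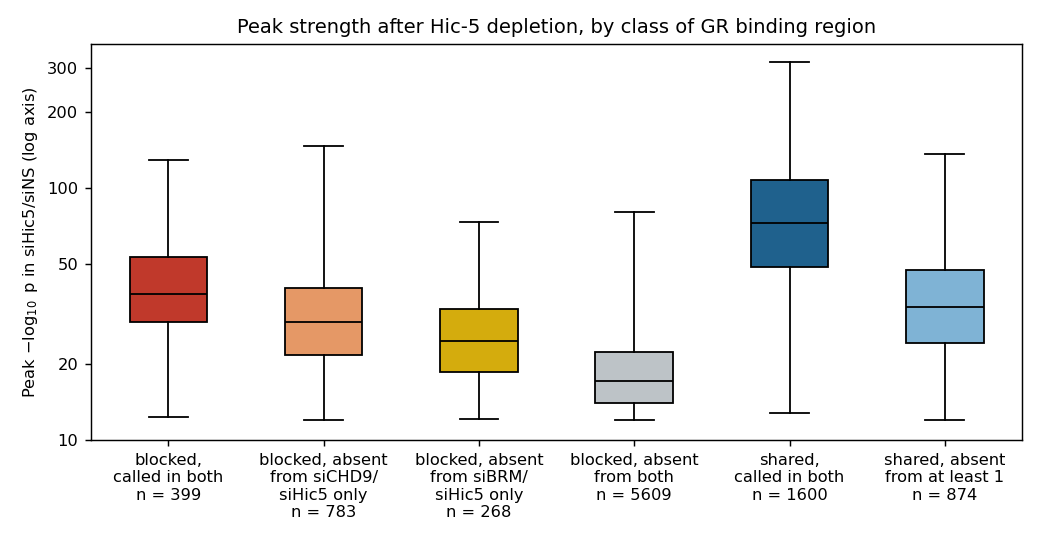
Strength of siHic5/siNS peaks, as −log10 p-value on a log axis, for 6 classes of GBR. Boxes give the quartiles and median and whiskers the lowest and highest value. The median of the dual-called GBR (leftmost box, 38.0) lies above the medians of the 3 other blocked classes, whose ranges overlap with it. It lies below the median of the shared GBR called in both doubly depleted lists (72.9).

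The place of the same sites differed between lists. In siHic5/siNS, 199 of the 399 were among the strongest 25% of its peaks and 12 among the weakest 25%. In siCHD9/siHic5, 18 were among the strongest 25% and 140 (35.1%) among the weakest 25%. In siBRM/siHic5 the numbers were 24 and 124 (31.1%). A good part of the set was therefore called close to the cutoff of a doubly depleted list. Since the lists differ in size and cutoff, these positions say where a site stands among the peaks of its own list and are no measure of how much GR was lost.

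The label of the set as independent of both remodelers rests on these calls, and the cutoff of the lists decided much of it. When the siHic5/siNS, siCHD9/siHic5 and siBRM/siHic5 lists were all held to a −log10 q-value of 14.2, the lowest of siBRM/siHic5, with siNS/siNS as deposited, 153 of the 399 GBR remained. At a −log10 q-value of at least 20 in these 3 lists, 67 remained. The overlap itself was not marginal. The smallest overlap of a dual-called GBR was 246 bp with siCHD9/siHic5, at RNF220, and 298 bp with siBRM/siHic5, at DYM. Just outside the rule, a GBR near CPT1A missed its nearest siCHD9/siHic5 peak by 123 bp and a GBR near SPOCK1 missed its nearest siBRM/siHic5 peak by 148 bp. The dual-called GBR closest to a siNS/siNS peak, near INHBA, was 210 bp from it.

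The strongest dual-called GBR was intergenic on chromosome 6 (chr6:44058293-44059347), 68.6 kb downstream of the TSS of MRPL14, which encodes a mitochondrial ribosomal protein. It ranked 272 of 9533 in siHic5/siNS, 551 of 2451 in siCHD9/siHic5, 722 of 3383 in siBRM/siHic5 and 797 of 1415 in siCHD9/siNS. The next was in an intron of FGR, a Src-family tyrosine kinase gene (chr1:27630884-27631816), and ranked 281, 1451 and 666 in the first 3 of these lists. MRPL14 thus kept a fairly even place in both doubly depleted lists, whereas FGR stood lower in siCHD9/siHic5.

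Several of the 12 strongest GBR had unequal places in the doubly depleted lists. The GBR in an intron of STAC2 (chr17:39222054-39222639), an adapter protein gene, ranked 478 in siHic5/siNS and 308 in siBRM/siHic5 but 2437 of 2451 in siCHD9/siHic5, where its −log10 q-value of 7.74 was the lowest in the list. At the UTR of GSTO2, a glutathione transferase gene, the rank was 992 in siBRM/siHic5 and 2284 in siCHD9/siHic5. The reverse order was seen in the TENM4 intron, in a teneurin gene, with rank 547 in siCHD9/siHic5 and 2879 of 3383 in siBRM/siHic5. An intronic GBR of MCTP1, a C2-domain protein gene, likewise ranked 1280 and 2729. STAC2 and GSTO2 therefore stood low in the list with CHD9 depleted, and TENM4 and MCTP1 low in the list with BRM depleted.

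The GBR near SOX9, the chondrocyte transcription factor gene, lay 212 kb upstream of its TSS and ranked 515 in siHic5/siNS, 918 in siCHD9/siHic5 and 798 in siBRM/siHic5. The site nearest KLF4, another transcription factor gene, lay 661 kb upstream of its TSS, so the gene name marks only its position. An intronic GBR of MAP2K1, the gene of the kinase MEK1, ranked 544 in siHic5/siNS, 1550 in siCHD9/siHic5 and 1104 in siBRM/siHic5. At the other end, the 3 weakest were in introns of NREP and WDFY4 and near MRTFB, ranked 8988, 9034 and 9230 of 9533. In the doubly depleted lists these 3 ranked between 1785 and 2220 of 2451 in siCHD9/siHic5 and between 2108 and 3009 of 3383 in siBRM/siHic5. They were thus near the cutoff in siHic5/siNS itself.

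**Figure D2:**
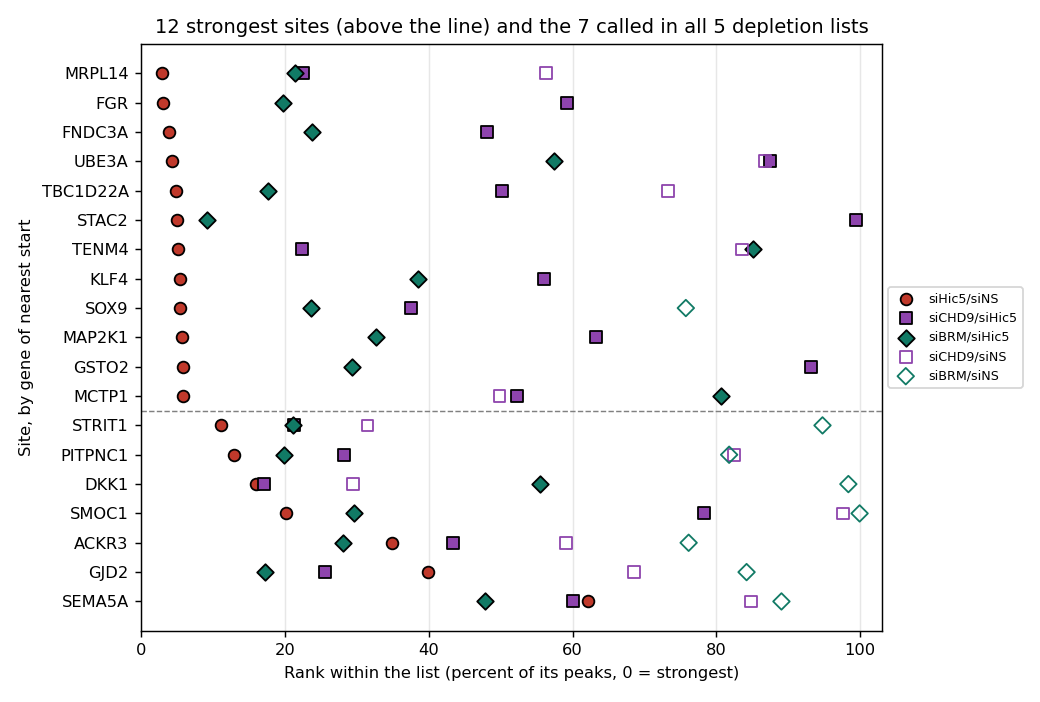
Rank of single dual-called GBR within each list that called them, as percent of the peaks of that list (0 is the strongest). Sites above the dashed line are the 12 strongest in siHic5/siNS and those below it the 7 called in both single-depletion lists, each named by the gene it lies in or has nearest. STAC2 is at 99.4% in siCHD9/siHic5 and 9.10% in siBRM/siHic5, and the open symbols of siBRM/siNS all lie beyond 75%.

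Whether these GBR are occupied when Hic-5 is present was examined in the lists of single depletions, which the rule did not use. Each of these lists shares its remodeler siRNA with a doubly depleted list that the rule did use. In siCHD9/siNS, 105 of the 399 dual-called GBR were called (26.3%, 95% Wilson interval 22.2 to 30.8%), against 2.04% of all blocked GBR and 39 of the 6660 other blocked GBR (0.586%). The difference from the other blocked GBR was 25.7 percentage points (95% Newcombe interval 21.6 to 30.3). In siBRM/siNS, 15 of the 399 were called (3.76%, 2.29 to 6.11%), against 0.524% of all blocked GBR and 22 of the other 6660 (0.330%). In all, 113 of the 399 (28.3%) were called in a list of cells containing Hic-5, against 2.46% of all blocked GBR. The 26.3% in siCHD9/siNS depended on the cutoff, in both directions. It was 14.4% and 9.16% of the sets found with every list held to a −log10 q-value of 14.2 or 20, and 51.6% and 73.1% with only the 3 Hic-5 depleted lists of the rule held to them. For the 113, absence from the siNS/siNS list thus does not extend to every list of cells with Hic-5. The lowest −log10 p-value was 12.6 in siNS/siNS, 11.6 in siCHD9/siNS and 11.3 in siBRM/siNS. The dual-called GBR had a median of 14.5 in siCHD9/siNS (lower quartile 12.6) and 12.5 in siBRM/siNS. Many of these calls were therefore near or below the siNS/siNS cutoff, and a difference in occupancy from control cells was not tested. Wilson and Newcombe intervals cover counting error only, and regions are not replicates.

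The excess in siCHD9/siNS was seen against each blocked class. There, 19 of the 268 GBR absent from siBRM/siHic5 only (7.09%), 13 of the 783 absent from siCHD9/siHic5 only (1.66%) and 7 of the 5609 absent from both (0.125%) were called. Only the 268 had, like the dual-called GBR, a peak in the other list with the CHD9 siRNA. The 783 and the 5609 were defined by lacking one, so the contrast with them is not independent of the rule. For siBRM/siNS the interval of the difference from the GBR absent from siCHD9/siHic5 only, of which 16 (2.04%) were called, included 0 (1.72 points, -0.21 to 4.19). The dual-called GBR stayed far below the shared GBR called in both doubly depleted lists, of which 72.3% were called in siCHD9/siNS and 64.6% in siBRM/siNS. Strength moved with these shares. Within the strongest of the 4 groups of blocked GBR, 93 of 333 dual-called GBR (27.9%, 23.4 to 33.0%) and 21 of 1429 others (1.47%, 0.963 to 2.24%) were called in siCHD9/siNS, while the median −log10 p-value in siHic5/siNS was 41.3 and 32.8. The part of strength in the remaining difference was not tested.

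**Figure D3:**
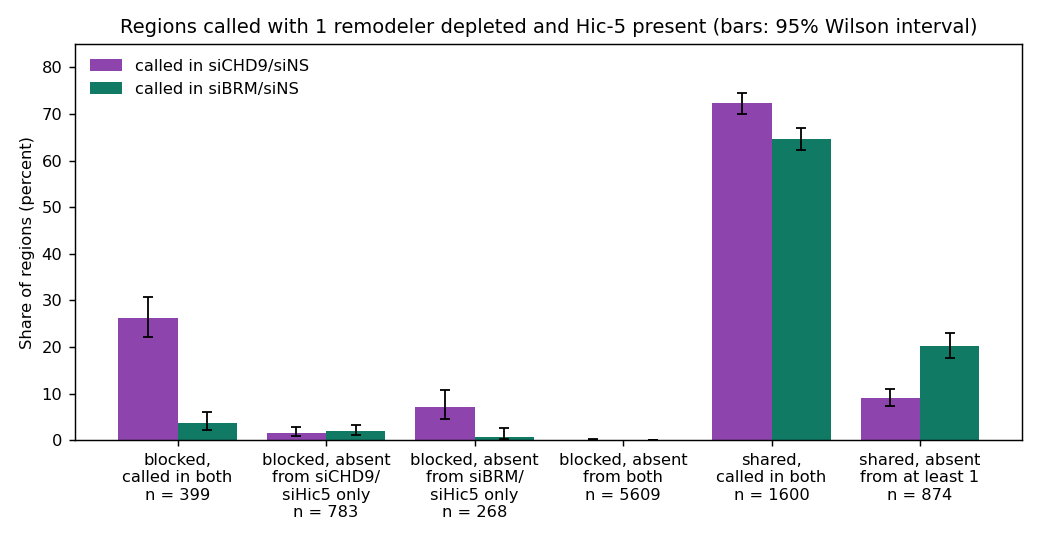
Share of GBR of each class called in siCHD9/siNS and in siBRM/siNS, the lists with 1 remodeler depleted and Hic-5 present, with 95% Wilson intervals. In siCHD9/siNS the dual-called GBR (leftmost) reach 26.3%, the other blocked classes at most 7.09% and the shared GBR called in both doubly depleted lists 72.3%. In siBRM/siNS the values are 3.76%, at most 2.04% (with an interval of the difference that includes 0) and 64.6%. Shared GBR absent from at least 1 list are at 9.04% and 20.1%. All bars use the deposited cutoffs. Under other cutoffs the set itself changed, and its share in siCHD9/siNS ran from 9.16 to 73.1%.

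The single-depletion lists differed at the dual-called GBR, but not only there. Of the 268 blocked GBR absent from siBRM/siHic5 only, 19 (7.09%) were called in siCHD9/siNS and 2 (0.746%) in siBRM/siNS. For the 783 absent from siCHD9/siHic5 only the numbers were 13 and 16, and for the 5609 absent from both 7 and 4. Shared GBR were called in similar numbers, 1236 in siCHD9/siNS and 1210 in siBRM/siNS, but their classes differed. Those called in both doubly depleted lists gave 1157 and 1034, and those absent from at least 1 gave 79 and 176. Of the 399, 98 were called in siCHD9/siNS only, 8 in siBRM/siNS only, 7 in both and 286 in neither. Seen from the lists, 158 of the 1415 siCHD9/siNS peaks had no siNS/siNS peak, and 105 of these 158 (66.5%, 58.8 to 73.3%) lay at dual-called GBR. Of the 40 such siBRM/siNS peaks, 15 (37.5%, 24.2 to 53.0%) did. The calls were weak within their lists, with a median rank of 1030 of 1415 in siCHD9/siNS and 1138 of 1278 in siBRM/siNS. All 15 in siBRM/siNS were among the weakest 25% of that list. siCHD9/siNS and siCHD9/siHic5 share the CHD9 siRNA, so an effect of that siRNA on other targets cannot be told apart from loss of CHD9.

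A few dual-called GBR were called in every list of depleted cells. Both single-depletion lists called 7 of the 399 (1.75%, 0.852 to 3.58%), against 0.0992% of all blocked GBR, and 0 of the other 6660, which allows a share of up to 0.045% by a limit of 3 counts, with a Wilson upper bound of 0.0576%. A GBR 60.2 kb downstream of the TSS of STRIT1, which encodes a small peptide that stimulates the sarcoplasmic calcium pump, ranked 1061 in siHic5/siNS, 519 in siCHD9/siHic5, 712 in siBRM/siHic5, 445 of 1415 in siCHD9/siNS and 1211 of 1278 in siBRM/siNS. A GBR 227 kb downstream of the TSS of DKK1, a secreted Wnt antagonist gene, ranked 1520, 419, 1878, 416 and 1257 in the same lists. The 5 others lay in introns of PITPNC1, SMOC1 and SEMA5A and near ACKR3, an atypical chemokine receptor gene, and GJD2, a connexin gene. The GBR near GJD2 ranked only 3800 of 9533 in siHic5/siNS but 627 of 2451 in siCHD9/siHic5 and 582 of 3383 in siBRM/siHic5. SEMA5A, a semaphorin gene, had the weakest siHic5/siNS peak of the 7, ranked 5923. Apart from these 7 being called in all 5 depletion lists, their places in the lists were thus mixed.

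Sequence was not used by the rule. AP-1 was searched as TGAGTCA or TGACTCA, and ETS as CAGGAAAC, CAGGAAAT, CAGGAAGC, CAGGAAGT, CCGGAAAC, CCGGAAAT, CCGGAAGC or CCGGAAGT, all on both strands. Within 1 kb at the summit, 232 of the 399 dual-called GBR (58.1%, 53.2 to 62.9%) had an AP-1 match, against 36.0% of the other blocked GBR, 37.1% of all siHic5/siNS GBR and 17.2% of windows 5 kb to either side of the dual-called GBR. The difference from the other blocked GBR was 22.1 points (17.1 to 27.0). The dual-called GBR also exceeded the shared GBR called in both doubly depleted lists, which had 42.3%, by 15.9 points (10.4 to 21.2). A match is a description of the sequence and does not show that AP-1 was bound.

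The AP-1 share followed the calls in siCHD9/siHic5 more than those in siBRM/siHic5. Blocked GBR absent from siBRM/siHic5 only, which like the dual-called GBR had a siCHD9/siHic5 peak, had AP-1 in 57.1%, and the difference from the dual-called GBR was 1.06 points (-6.52 to 8.69). Blocked GBR absent from siCHD9/siHic5 only had it in 40.5%, which was 17.7 points lower (11.7 to 23.5), and those absent from both in 34.4%. A similar order held among shared GBR, with AP-1 in 42.3% of those called in both lists, 39.5% (29.2 to 50.7%) of the 76 absent from siBRM/siHic5 only, 24.6% (21.1 to 28.5%) of the 520 absent from siCHD9/siHic5 only and 24.8% of the 278 absent from both. A high AP-1 share was therefore not particular to the dual-called GBR, and no difference was shown from the other blocked GBR with a siCHD9/siHic5 peak. The doubly depleted lists were cut unequally, with a lowest −log10 p-value of 11.5 in siCHD9/siHic5 and 17.8 in siBRM/siHic5. Blocked GBR absent from siBRM/siHic5 only had a median of 13.9 in siCHD9/siHic5, with an upper quartile of 16.8. The part of these cutoffs in the order of AP-1 shares was not tested.

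AP-1 shares were also taken within the 4 strength groups, in which the dual-called GBR were not always of the same strength as the others (median −log10 p-value 41.3 and 32.8 in the strongest). In the strongest group of blocked GBR, 58.6% (53.2 to 63.7%) of the dual-called and 36.6% (34.1 to 39.1%) of the other GBR had AP-1. In the next group the shares were 61.1% of 36 (44.9 to 75.2%) and 35.3% of 1676. In the weaker groups, with few dual-called GBR, they were 55.0% of 20 (34.2 to 74.2%) against 37.9%, and 40.0% of 10 (16.8 to 68.7%) against 34.3%, so that a gap was not shown there. The part of strength in the AP-1 difference was not tested. GC content was 47.5% ± 8.81 (SD across GBR, n = 399) for the dual-called and 47.4% ± 8.44 (n = 6660) for the other blocked GBR.

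**Figure D4:**
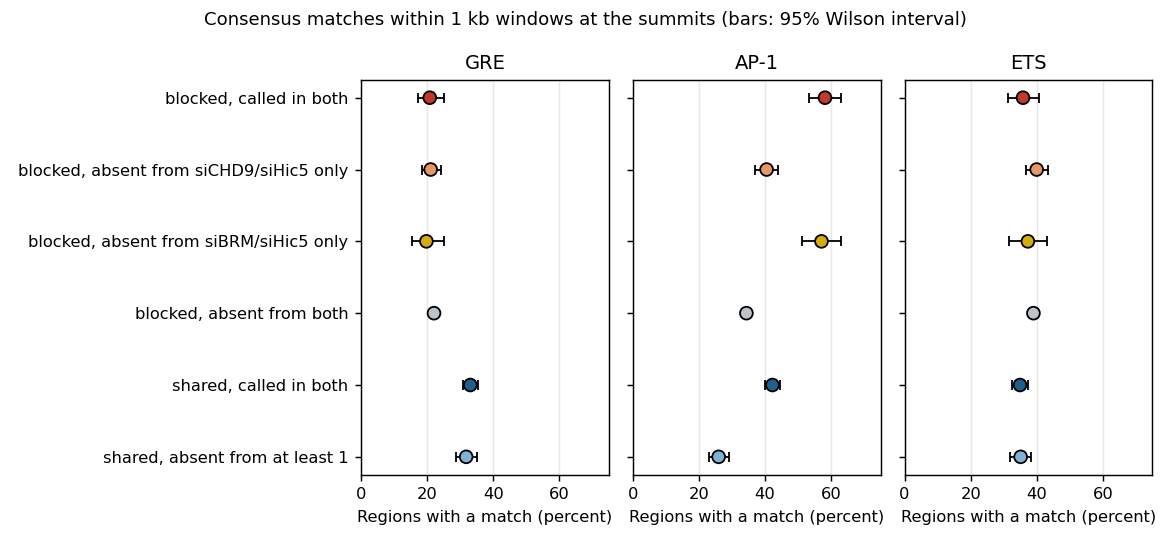
Share of GBR of each class with a GRE, AP-1 or ETS consensus match in the 1-kb window at the summit, with 95% Wilson intervals. AP-1 is at 58.1% for the dual-called GBR and 57.1% for the GBR absent from siBRM/siHic5 only, and at 42.3% or lower in the other classes. GRE is at 20.8% for the dual-called GBR against 33.1% for the shared GBR called in both lists.

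AP-1 matches were also closer to the summits. Where a dual-called GBR had a match, the nearest was a median of 67 bp from the summit and within 100 bp in 70.7%. For other blocked GBR the median was 92.5 bp, with 52.8% within 100 bp. In windows of 200 bp, 39.3% of dual-called and 18.6% of other blocked GBR had AP-1, a difference of 20.8 points (16.0 to 25.7). At least 2 matches were found in 59 dual-called GBR (14.8%) against 7.43% of the other blocked GBR. No difference was shown from one of the other blocked classes. At the blocked GBR absent from siBRM/siHic5 only, AP-1 was found within 200 bp in 38.1%, a difference of 1.29 points (-6.27 to 8.72), and at least 2 matches in 12.7%.

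**Figure D5:**
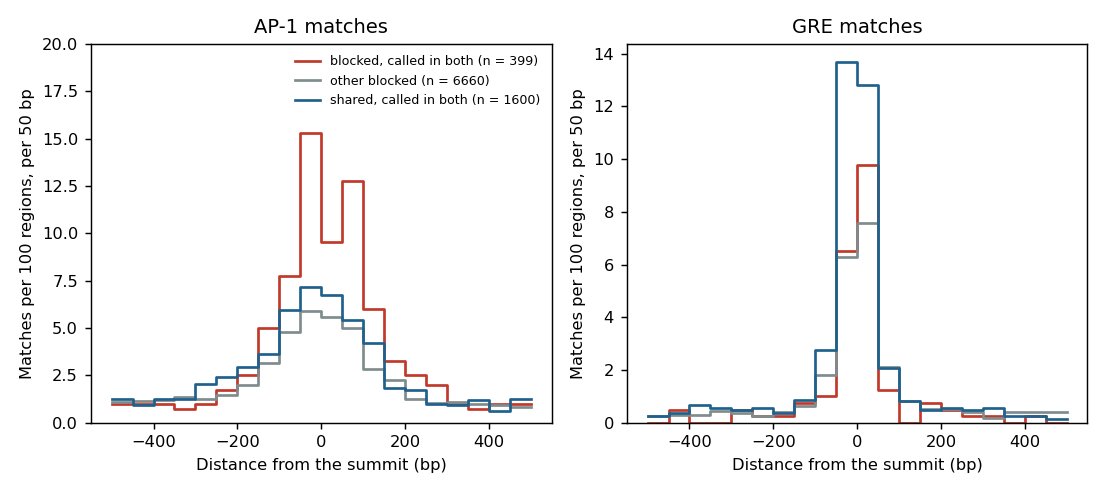
AP-1 (left) and GRE (right) matches per 100 GBR in bins of 50 bp by distance from the siHic5/siNS summit. In the bin just left of the summit the dual-called GBR have 15.3 AP-1 matches per 100 GBR, the other blocked GBR 5.89 and the shared GBR called in both doubly depleted lists 7.19, whereas for GRE the shared GBR have the tallest peak.

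GRE matches were less frequent at the dual-called than at the shared GBR, and no difference was shown from the other blocked GBR. A GRE was found in 83 of the 399 (20.8%, 17.1 to 25.1%), against 21.9% of the other blocked GBR, 24.6% of all siHic5/siNS GBR and 6.27% of windows to either side. The difference from the other blocked GBR was -1.06 points (-4.89 to 3.30), and from the shared GBR called in both lists, with 33.1%, it was -12.3 points (-16.6 to -7.44). The matches present were central, at a median of 13 bp from the summit. By a degenerate GRE consensus, 50.4% of dual-called and 48.8% of other blocked GBR had a match, against 70.0% of the shared GBR called in both lists. Taken by combination, 182 dual-called GBR had AP-1 without GRE, 50 had both, 33 had GRE without AP-1 and 134 had neither.

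The 105 dual-called GBR called in siCHD9/siNS had a GRE in 28.6%, and the 294 others in 18.0%, a difference of 10.5 points (1.42 to 20.6). By the degenerate consensus the shares were 52.4% and 49.7%, with an interval of the difference that included 0 (2.72 points, -8.32 to 13.6). AP-1 was found in 61.9% and 56.8% (5.10 points, -5.94 to 15.5). A surplus of GRE at the sites called with Hic-5 present thus depended on the pattern used.

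Other motifs differed little from the other blocked GBR. ETS was found in 143 of the 399 (35.8%, 31.3 to 40.7%), against 39.0% of the other blocked GBR, a difference of -3.20 points (-7.90 to 1.76), and 37.9% of all siHic5/siNS GBR. Windows 5 kb to either side of the dual-called GBR had ETS in 29.7% (26.6 to 33.0%), an interval that overlapped that of the summits. FOX (TGTTTAC), the motif of forkhead factors, was less frequent, in 9.77% against 14.8% (-4.99 points, -7.67 to -1.57). RUNX (TGTGGTT) was slightly more frequent, in 24.8% against 20.3% (4.53 points, 0.42 to 9.09). For TEAD (ACATTCC), C/EBP (TTGCNNAA) and the GC box (GGGCGG), the intervals of the difference included 0. The single receptor arm AGAACA, which is contained in the GRE pattern, occurred within 200 bp in 28.3% of dual-called and 37.0% of other blocked GBR (-8.69 points, -13.0 to -3.94), while within 1 kb the shares were 64.2% and 67.5%, with an interval that included 0 (-3.33 points, -8.28 to 1.36). For FOX and RUNX in 200-bp windows the intervals included 0. Within 1 kb they excluded 0 against blocked GBR absent from both lists, but included it against each other class compared. Against those absent from siCHD9/siHic5 only they were -7.25 to 0.34 for FOX and -1.38 to 8.84 for RUNX. Against those absent from siBRM/siHic5 only they were -9.73 to 0.54 and -2.29 to 10.6, and against shared GBR called in both -6.63 to 0.13 and -2.01 to 7.38. Windows 5 kb to either side had FOX in 11.3% and RUNX in 17.0%.

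The dual-called GBR were mostly distal. Of the 399, 227 (56.9%) were intergenic, 155 (38.8%) intronic, 11 in a UTR, 4 in a coding exon and 2 in a non-coding exon. Intergenic GBR were more frequent than among the other blocked GBR (50.2%), by 6.71 points (1.67 to 11.6), and intronic GBR less frequent (44.9%). No difference was shown from the shared GBR called in both lists. Of these, 53.5% were intergenic (3.39 points, -2.08 to 8.8) and 41.1% intronic (-2.22 points, -7.47 to 3.21). The median distance to the nearest protein-coding TSS was 55.0 kb, against 52.8 kb, and 254 GBR (63.7%) were within 100 kb of one. A shared GBR lay within 10 kb of 33 dual-called GBR (8.27%), against 10.0% of the other blocked GBR and 20.3% of the shared GBR called in both lists. Most dual-called GBR were thus not flanking a shared site. They lay on 23 chromosomes, with the most on chromosome 2 (38 of its 684 blocked GBR) and the highest share on chromosome 13 (14 of 135, 10.4%).

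The summits mostly lay close together in the lists. The siCHD9/siHic5 summit was a median of 22 bp from the siHic5/siNS summit (quartiles 10 and 39 bp) and the siBRM/siHic5 summit 18 bp, and 83.2% and 85.7% lay within 50 bp. At the 105 GBR called in siCHD9/siNS the median was 21 bp. The shared GBR called in both doubly depleted lists had medians of 14 and 15 bp. The GBR were chosen by overlap with the peaks of the doubly depleted lists, so the distances to those summits are a description only.

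Within 1 kb of a protein-coding TSS there were 14 dual-called GBR (3.51%, 2.10 to 5.80%), against 4.74% of the other blocked GBR. The strongest was at the UTR of ARMC8 (chr3:138187981-138188580), 951 bp downstream of the TSS, ranked 731 in siHic5/siNS. The next were 482 bp upstream of the TSS of EDN3, the endothelin 3 gene (chr20:59299623-59300638, rank 881), and 216 bp downstream of that of CSF3, which encodes the granulocyte colony stimulating factor (chr17:40015389-40015942, rank 911). EDN3 had a GRE and AP-1, and CSF3 neither. Others were at MSI2, an RNA-binding protein gene, EIF4G1, a translation initiation factor gene, ITGB8, an integrin gene, and TNFRSF12A, a receptor gene of the TNF family. ITGB8 and TNFRSF12A were also called in siCHD9/siNS, with ranks of 772 and 1086 of 1415.

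Genes of fixed lists were searched for dual-called GBR up to 100 kb from their TSS. Among 20046 protein-coding genes, 653 (3.26%) had one. Of 38 glucocorticoid response genes, 3 did (7.89%, 2.72 to 20.8%). Some blocked GBR was found for 31 of the 38 (81.6%), against 38.6% of all protein-coding genes. The 3 were 9.68% of the listed genes with a blocked GBR, against 8.44% of all protein-coding genes with one. The first was DUSP1, a phosphatase of MAP kinases, with a GBR 24.4 kb upstream of the TSS (chr5:172795264-172795897) that held AP-1 and ranked 893 in siHic5/siNS. PER1, a circadian clock gene, had a GBR with a GRE in an intron, 495 bp downstream of the TSS (chr17:8151148-8152220), ranked 4401. For STOM, the stomatin gene, the GBR lay 83.1 kb from the TSS in an intron of GSN. None of these 3 GBR was called in a single-depletion list, against 28.3% of all dual-called GBR, and 3 are too few to show a difference.

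Of 17 AP-1 family genes 2 had a dual-called GBR (11.8%, 3.29 to 34.3%), FOS at 23.1 kb downstream (rank 2043) and JUND at 93.0 kb upstream (rank 2855), and both GBR held AP-1 and ETS matches. Of the 12 AP-1 family genes with any blocked GBR these were 16.7%, against 8.44% of all protein-coding genes with a blocked GBR. Of 32 genes of TGF-beta signaling 1 did, PMEPA1, which encodes an inhibitor of that pathway, with a weak intronic GBR (rank 8412). Of 36 focal adhesion genes 1 did, PXN, encoding paxillin, the founding member of the family of Hic-5, with an intronic GBR ranked 2321. The GBR of PMEPA1 and PXN were both called in siCHD9/siNS, as were 26.3% of all dual-called GBR. None of 28 ETS family genes had one, which allows a share of up to 10.7% by a limit of 3 counts, with a Wilson upper bound of 12.1%. The intervals included the 3.26% of protein-coding genes for each list but the AP-1 family, whose lower bound of 3.29% was just above it and rested on 2 genes.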

How the data were processed

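Per the study's methods, the authors mapped trimmed single-end reads of 12 GR ChIP-seq libraries to GRCh38/hg38 using BWA. Duplicates and mitochondrial reads were dropped, and peaks came from MACS2 with the IDR framework. The peak names in the deposited files mark each list as made from pooled replicates. Tool versions are not given in the sources used here. The deposited signal value is a fold enrichment (ratio) by the file format, and no result rests on it. The deposited −log10 p-value was used to rank peaks within a list, and the deposited −log10 q-value, taken as a score of the authors' peak caller, to filter them. The summit came from the deposited offset. The 6 input libraries were not analysed here. No depth per library can be read from the lists.

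The members and gene lists were chosen with earlier results of these data known. Overlap of at least 1 bp was used throughout. Shares have Wilson intervals and differences Newcombe intervals, both at 95%, with no test over regions. Motifs were counted in the reference at siHic5/siNS summits, in windows of 1 kb and 200 bp. Positions and TSS came from GENCODE release 44. Named sites were the 12 strongest by −log10 p-value, all called in both single-depletion lists, up to 8 within 1 kb of a TSS, the 3 weakest, and sites of listed genes, each named by the gene it lies in or by the nearest TSS. One such site is not reported here. Sites at the limits of the overlap rule were named after their values were seen. Alternatives were other overlaps, cutoffs, windows, patterns and gene sets. Overlap and motif search were tested on simulated data, against bedtools 2.31.1 for overlap. Software comprised samtools 1.23.1, pysam 0.24.0, Matplotlib 3.10.9, pandas 2.3.3, NumPy 2.4.6, statsmodels 0.14.6 and SciPy 1.17.1 under Python 3.11.15.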

Additional observations from a re-analysis of the deposited data

How the results depend on the processing

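The cutoff decided which GBR were dual-called. With every list held to a −log10 q-value of 14.2 there were 347 and with at least 20 there were 251, but only 153 and 67 of these were among the 399, since GBR of siNS/siNS below the cutoff then counted as blocked. The blocked share was 7.14% and 7.28%, the share called in siCHD9/siNS 14.4% and 9.16%, and that called in siCHD9/siNS or siBRM/siNS 14.7% and 9.16%. In a choice made after seeing the data, only the 3 Hic-5 depleted lists of the rule were held to these cutoffs. The set was then 153 and 67 GBR, 3.82% and 2.95% of the blocked GBR, of which 51.6% and 73.1% were called in siCHD9/siNS and 54.2% and 76.1% in either single-depletion list. With the 1000 strongest peaks of each list there were 80 GBR, of which 7 were among the 399, 27.8% of the blocked, with 66.3% in siCHD9/siNS and 72.5% in either. The direction of the change in these shares thus turned on which lists were cut. AP-1 was 20.8 to 25.6 points more frequent than at other blocked GBR under each of the 9 alternatives tried for it, with a lowest share of 39.3% in 200-bp windows and a highest of 64.2% (cutoff 20 in 3 lists). GRE was found in 29.1% (cutoff 20 in every list), 25.4% (in 3 lists), 3.26% (up to 1 mismatch) and 50.4% (degenerate), and the interval of its difference from other blocked GBR included 0 in each. ETS was found in 41.3% (1000 strongest), 12.03% (200 bp) and 12.3% (ending in GT). Within 1 kb of a TSS lay 7.50% (1000 strongest), 1.96% (14.2 in 3 lists) and 11.3% (all annotated genes). The median TSS distance was 71.0 kb (20 in every list), 67.0 kb (20 in 3 lists) and 13.9 kb (all annotated genes). The siCHD9/siHic5 summit was a median of 18 bp (14.2 in every list), 16 bp (20), 17 bp (20 in 3 lists) and 14 bp (1000 strongest) away, and 33 bp for midpoints. For siBRM/siHic5 it was 13 bp (20 in 3 lists) and 34 bp for midpoints. Overlap of at least 0.5 of the shorter peak, or a summit inside the other peak, gave 399 and 396 GBR and moved no result. The cause of the other changes was not tested. No paired analysis was possible because each list was pooled over its replicates, and for the same reason leaving out a replicate was not run. A call is yes or no, so the lists limit the statements to peaks called, and a partial loss of GR cannot be seen.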
